A study of Mus musculus with 12 samples.

Results

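Messenger RNA of 49 genes that drive or mark cell division was measured in mouse lymph nodes. The genes were chosen by name, from the known biology of the cell cycle, but with earlier results of these data known. Of these, 20 act in DNA replication or at the G1/S transition, 27 act in G2 or mitosis, and Stmn1 and H2afx belong to neither class. All 49 were found by symbol among the 55487 genes of the count table, and all 49 were among the 17301 genes with enough counts to be tested. There were 4 groups, each with 3 libraries. T mice carried B16F10 cells, a mouse melanoma line, placed in the tongue, and NT mice received no such cells. In NDE mice the pain-sensing (nociceptive) nerves that reach the tumour-draining lymph node were inhibited, and in NC mice they were not. The design asks whether the tumour, the loss of nerve activity, or both together alter the node before metastasis. The sources used here do not give the means of nerve inhibition, the strain, sex and age of the mice, the day of sampling or the number of mice behind a library. The labels call the replicates biologically independent, and p-values measure only the spread between these libraries.

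Library totals ran from 16862953 to 24467873 counts. Levels are given in CPM, the usual unit of counts scaled to library size. B cell markers (6 of 6 listed genes, summed) ran from 2619 to 3592 CPM and T cell markers (6 of 6, summed) from 1256 to 1604 CPM, so both lymphocyte lineages were present in every library. Of 6 melanoma markers, Tyrp1 and Dct were at 0 in 9 of 12 libraries and Mlana in 7, Tyr and Pmel reached at most 0.967 and 1.01 CPM, and Mitf ran from 7.11 to 10.4 CPM. The 3 libraries with Tyrp1 counts were T NC replicate 3 (0.651 CPM), T NDE replicate 2 (0.203) and T NDE replicate 3 (0.0484). Dct counts were in T NC replicate 3 (0.178), T NDE replicate 2 (0.254) and NT NDE replicate 3 (0.0526). Mlana counts were in NT NC replicates 1 (0.169) and 3 (0.0505), T NC replicate 3 (0.237) and T NDE replicates 1 (0.0549) and 2 (0.0507). The list summed to 9.09 to 11.6 CPM in NT NC, 8.55 to 10.7 in T NC, 9.09 to 10.2 in NT NDE and 8.78 to 12.1 in T NDE. Salivary gland transcripts set 3 libraries apart: a summed list of 7 genes reached 1469 CPM in NT NC replicate 2, 29010 in NT NC replicate 3 and 41340 in T NDE replicate 3, against 11.5 to 58.6 CPM in the other 9. Class medians and counts of genes called are given with and without these libraries. Overlaps between groups and most single-gene values are given only with them. A further library, NT NC replicate 1, stood apart by the cell cycle genes themselves. It is the only NT NC library not among the salivary ones (17.8 CPM). Any result without it therefore rests on salivary libraries alone for NT NC. In a tissue sample, fewer dividing cells and less RNA per dividing cell cannot be told apart.

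A cell that commits to division first switches on replication genes in late G1, and E2F transcription factors drive many of them once the retinoblastoma protein is inactivated. Mitotic genes follow in G2, through complexes of MuvB proteins with B-Myb and FoxM1 that bind a cell cycle homology region (CHR), often beside CCAAT boxes bound by NF-Y. In a lymph node most lymphocytes rest in G0, and the dividing cells are mainly activated T and B cells, germinal centre B cells and plasmablasts.

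The promoters of both classes differed in the motifs they hold. RefSeq start sites (assembly GRCm38.p6) were matched for 38 of 49 members, each with 300 bases, 250 before the start and 50 after it. Some genes have several start sites. Both strands were searched for an E2F site (the letters TTCGCGC, the letters TTGGCGC, the letters TTCCCGC or the letters TTGCCGC), a CHR element (TTTGAA or TTCGAA) and a CCAAT box (CCAAT). An E2F site was found in 10 of 18 replication promoters (55.6%) and 4 of 23 mitosis promoters (17.4%), against 9.57% of all 32851 promoters. A CHR element was found in 18 of 23 mitosis promoters (78.3%) and 4 of 18 replication promoters (22.2%), against 19.2% of all promoters. A CCAAT box was found in 19 of 23 mitosis promoters (82.6%) and 12 of 18 replication promoters (66.7%), against 37.4% of all. CHR and CCAAT occurred together in 17 of 23 mitosis promoters and in 7.52% of all promoters. A match is a run of letters, not a bound site.

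**Figure D1:**
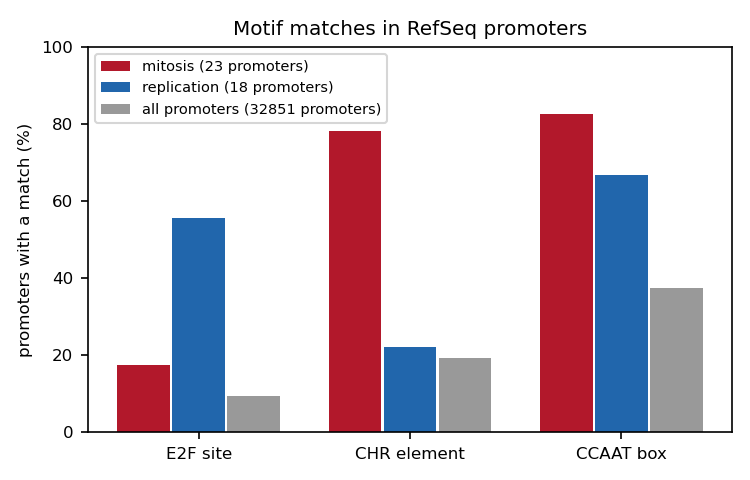
Share of promoters with at least 1 match (y axis, percent) for each motif (x axis), in mitosis members, replication members and all RefSeq mouse promoters. E2F sites were most frequent in replication promoters (55.6%) and CHR elements in mitosis promoters (78.3%).

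The 250 bases before the start are shown for a pair of replication members and a pair of mitosis members, as examples of the motif that gives each class its largest excess over all promoters. Each is read 5′ to 3′ on the gene's strand. Capitals mark E2F sites in Mcm6 and Cdc6 and CHR elements in Top2a and Mki67, on either strand. In Mcm6 each run of capitals holds 2 overlapping E2F matches. The Mki67 window also holds an E2F match, left in lower case, that begins 67 bases before the start. The windows are chr1:128359706-128359955 (minus strand) for Mcm6, which encodes a subunit of the replicative helicase, and chr11:98907901-98908150 (plus strand) for Cdc6, which loads that helicase. They are chr11:99024190-99024439 (minus strand) for Top2a, which untangles chromosomes, and chr7:135716380-135716629 (minus strand) for Mki67, the Ki-67 proliferation antigen that coats mitotic chromosomes.
Mcm6: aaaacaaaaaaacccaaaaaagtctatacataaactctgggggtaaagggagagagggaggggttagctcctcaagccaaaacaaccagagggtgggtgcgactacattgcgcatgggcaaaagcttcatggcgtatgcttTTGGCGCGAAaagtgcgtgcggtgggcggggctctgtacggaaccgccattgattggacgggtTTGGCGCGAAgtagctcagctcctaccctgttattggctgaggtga
Cdc6: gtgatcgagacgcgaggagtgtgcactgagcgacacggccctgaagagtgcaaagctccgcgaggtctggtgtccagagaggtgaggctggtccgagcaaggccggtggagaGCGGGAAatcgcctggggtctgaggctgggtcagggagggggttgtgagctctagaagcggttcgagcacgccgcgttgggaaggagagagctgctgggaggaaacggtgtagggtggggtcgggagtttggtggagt
Top2a: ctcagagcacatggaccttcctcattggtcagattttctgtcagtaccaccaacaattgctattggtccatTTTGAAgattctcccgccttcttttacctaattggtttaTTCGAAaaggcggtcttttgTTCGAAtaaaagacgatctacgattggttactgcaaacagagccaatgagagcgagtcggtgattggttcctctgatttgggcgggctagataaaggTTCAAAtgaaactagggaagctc
Mki67: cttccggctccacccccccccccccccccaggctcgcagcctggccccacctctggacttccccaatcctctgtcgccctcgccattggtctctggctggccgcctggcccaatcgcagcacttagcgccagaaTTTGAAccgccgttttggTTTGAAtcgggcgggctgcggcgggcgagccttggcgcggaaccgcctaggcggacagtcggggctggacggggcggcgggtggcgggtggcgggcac

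A control library stood apart from its own group. NT NC replicate 1, a node with no tumour and intact nerves, was the lowest of the 12 libraries for 47 of 49 members, against 10.1% of all tested genes. This held for 27 of 27 mitosis members and 18 of 20 replication members, the exceptions being Cdt1 and E2f1. Summed over the 27 mitosis members, the levels were 707, 1196 and 1190 CPM in NT NC replicates 1, 2 and 3. They were 1238, 1143 and 1021 CPM in T NC, 1195, 1110 and 1450 in NT NDE, and 1287, 1256 and 1233 in T NDE. Replicate 1 of NT NC lay below all 11 others. Without it, T NC, NT NDE and T NDE overlapped one another, and the remaining NT NC libraries lay within T NC and NT NDE but below T NDE. Summed replication members stood at 887, 1128 and 1252 CPM in NT NC, 1214, 1159 and 1124 in T NC, 1200.0, 1111 and 1305 in NT NDE, and 1188, 1275 and 1167 in T NDE. The same library was lowest, by a smaller margin.

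**Figure D2:**
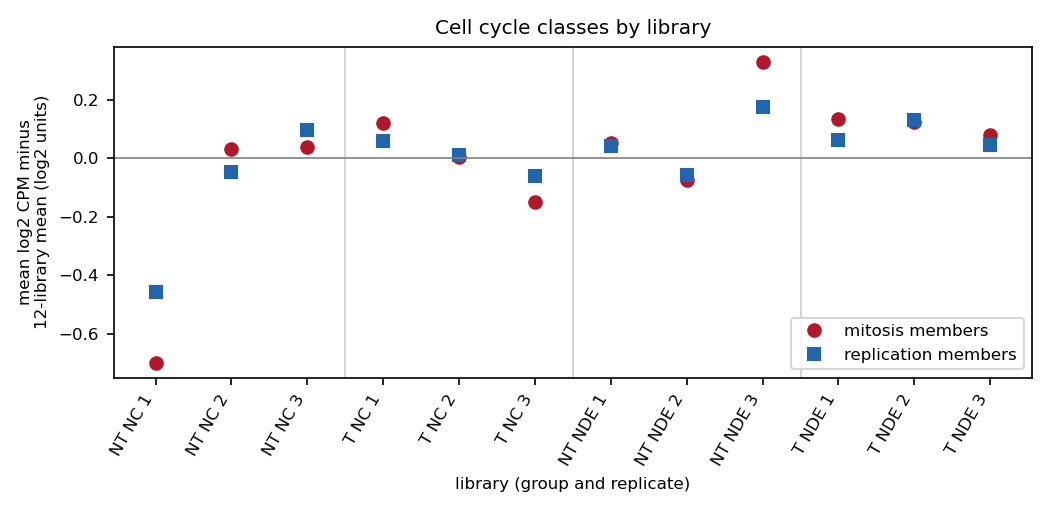
Mean log2 CPM of the 27 mitosis members (circles) and 20 replication members (squares) in each library (x axis), as the difference from each gene's mean over 12 libraries (y axis, log2 units). NT NC replicate 1 lies at -0.70 for mitosis and -0.46 for replication, and NT NDE replicate 3 is highest at 0.33 and 0.18.

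The gap between that library and the rest was wider for mitosis than for replication members. Against the median of the other 11 libraries, the log2 level in NT NC replicate 1 had a median of -0.78 over mitosis members (from -1.13 for Birc5 to -0.17 for Kif23) and -0.46 over replication members (from -1.02 for Cdc6 to -0.05 for Cdt1). The median over all tested genes was 0.01. A level more than 0.5 log2 units below was seen for 24 of 27 mitosis members, 9 of 20 replication members and 6.04% of all tested genes. These values describe a library singled out after its values were seen, and no test applies to them. At the other end, NT NDE replicate 3 was the highest library for 33 of 49 members (24 mitosis, 7 replication, and both Stmn1 and H2afx), against 7.83% of tested genes.

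**Figure D3:**
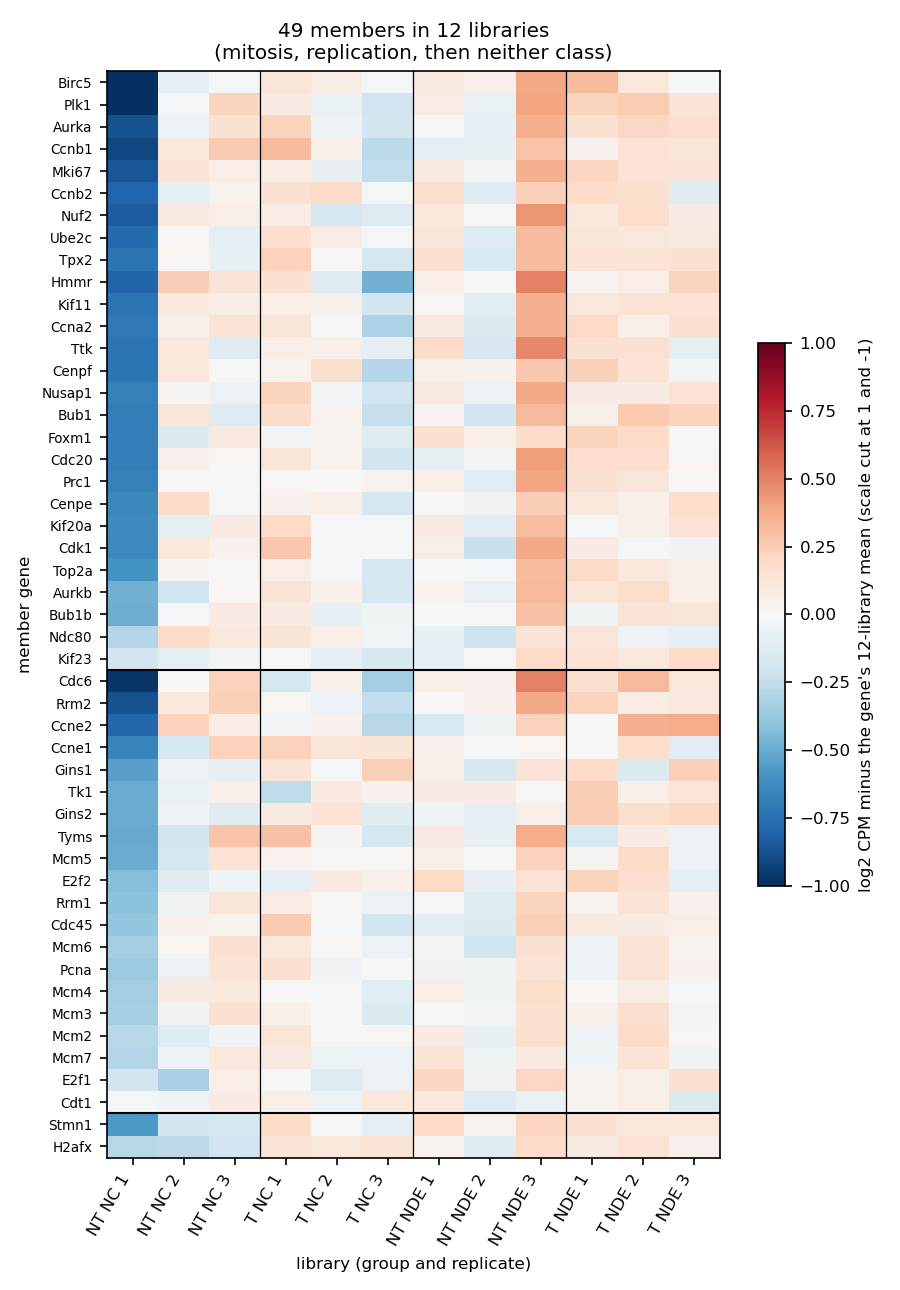
Each of the 49 members (rows, by class) in each of the 12 libraries (columns), coloured by log2 CPM minus the gene's mean over 12 libraries, with the colour scale cut at 1 and -1. The NT NC replicate 1 column is lowest in 47 of 49 rows, and NT NDE replicate 3 is highest in 33.

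Among the mitosis members, Mki67 had the highest level per kilobase of exon (28.3 CPM). It stood at 154, 305.5 and 291 CPM in NT NC, 294, 266 and 235 in T NC, 298, 273 and 358 in NT NDE, and 325, 309 and 305 in T NDE, in replicate order. NT NC replicate 1 held 51.9% of the median of the other 11, while those 11 differed among themselves by at most 1.52-fold. Mki67 lies on mm10 chromosome 7 from 135689784 to 135716361, on the minus strand. Top2a (chromosome 11, 98992943 to 99024189, minus strand) stood at 109, 168 and 168 CPM in NT NC, 173, 164 and 148 in T NC, 166, 164 and 206 in NT NDE, and 189, 178 and 172 in T NDE. Its lowest and highest libraries were the same ones.

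The kinase that starts mitosis and its cyclin behaved alike. Ccnb1, cyclin B1, stood at 15.5, 31.2 and 34.9 CPM in NT NC, 36.0, 30.0 and 24.2 in T NC, 27.3, 27.5 and 35.4 in NT NDE, and 29.9, 32.1 and 31.5 in T NDE. Cdk1, its partner kinase, stood at 14.7, 24.7 and 23.5 CPM in NT NC, 27.6, 22.6 and 22.7 in T NC, 23.95, 19.6 and 29.8 in NT NDE, and 24.2, 22.6 and 22.4 in T NDE. For both, every group overlapped every other once NT NC replicate 1 was set aside. Ccnb2 (51.9% of the median of the other 11 in that library) and Ccna2 (57.4%), the further mitotic cyclins, were also lowest there.

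Mitotic kinases and their regulators included the lowest shares in that library. Plk1, the polo-like kinase that drives spindle assembly, stood at 11.9, 23.8 and 28.1 CPM in NT NC, 25.6, 23.1 and 21.0 in T NC, 25.4, 23.1 and 31.7 in NT NDE, and 28.1, 28.8 and 26.6 in T NDE. The T NDE values lay close together and all above T NC, whereas NT NC ran from below to above the range of T NC. In NT NC replicate 1, Birc5 (survivin, of the chromosomal passenger complex) held 45.5% of the median of the other 11, Plk1 46.6%, Aurka (spindle pole kinase) 49.04% and Aurkb (passenger complex kinase) 69.5%. Foxm1, the transcription factor of the mitotic genes, held 59.7%.

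Cdc20 activates the anaphase-promoting complex. It stood at 18.5, 31.0 and 30.1 CPM in NT NC, 32.6, 30.7 and 26.3 in T NC, 27.9, 29.4 and 40.0 in NT NDE, and 33.7, 33.6 and 30.3 in T NDE. Ube2c, the ubiquitin-conjugating enzyme of that complex, held 54.5% of the median of the other 11 in NT NC replicate 1. The checkpoint and kinetochore members ran from 53.1% (Nuf2) through Ttk (57.5%), Cenpf (58.0%), Bub1 (59.6%) and Cenpe (61.9%) to Bub1b (71.5%) and Ndc80 (78.4%). The spindle and cytokinesis members ran from 54.8% for Hmmr and Tpx2 through Kif11 (57.0%), Nusap1 (59.4%), Prc1 (61.8%) and Kif20a (62.1%) to Kif23 (89.0%). Kif23, a motor of the central spindle, was thus the mitosis member nearest to the other libraries.

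The 6 subunits of the MCM helicase held between 69.7% (Mcm5) and 83.4% (Mcm7) of the median of the other 11 libraries in NT NC replicate 1. Mcm5 stood at 65.3, 82.0 and 101.9 CPM in NT NC, 94.4, 92.5 and 93.3 in T NC, 95.8, 91.7 and 108 in NT NDE, and 93.7, 104.7 and 88.4 in T NDE. Pcna, the sliding clamp of the polymerases, stood at 114, 141.5 and 162 CPM in NT NC, 164, 143.5 and 147 in T NC, 144, 142.5 and 161 in NT NDE, and 141.5, 161 and 152 in T NDE. Outside the low library both genes varied little, by at most 1.32-fold and 1.16-fold. Gins1, Gins2 and Cdc45, which complete the active helicase, held 66.4%, 67.9% and 74.0%.

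Some genes of nucleotide supply and origin licensing lay further down. Rrm2, the S phase subunit of ribonucleotide reductase, stood at 33.9, 66.9 and 73.4 CPM in NT NC, 63.0, 59.6 and 52.5 in T NC, 62.0, 64.1 and 81.0 in NT NDE, and 72.4, 65.4 and 66.5 in T NDE. Cdc6 stood at 6.58, 12.9 and 15.2 CPM in NT NC, 11.4, 13.4 and 10.2 in T NC, 13.4, 13.3 and 18.2 in NT NDE, and 14.4, 16.2 and 13.8 in T NDE. Both were near 50% of the other libraries' median in NT NC replicate 1 (51.9% for Rrm2 and 48.98% for Cdc6), close to the mitotic genes. Rrm1, the large subunit of the reductase, held 73.5%, and the thymidylate enzymes Tyms and Tk1 held 69.4% and 67.9%. Cdt1, which licenses origins together with Cdc6, held 96.5% and ranged only from 43.2 to 51.3 CPM over all 12 libraries.

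The G1/S regulators were uneven. Ccne1, cyclin E1, stood at 8.61, 12.2 and 16.1 CPM in NT NC, 16.1, 14.9 and 15.04 in T NC, 14.1, 13.5 and 13.9 in NT NDE, and 13.7, 15.5 and 12.6 in T NDE. E2f1, an activating E2F factor, stood at 13.7, 12.5 and 16.4 CPM in NT NC, 15.5, 14.3 and 14.98 in T NC, 18.1, 15.3 and 18.0 in NT NDE, and 16.0, 16.2 and 17.4 in T NDE. The low library thus stood apart for Ccne1 but not for E2f1, whose lowest value was in NT NC replicate 2. Ccne2 and E2f2 held 56.5% and 72.2% of the median of the other 11.

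**Figure D4:**
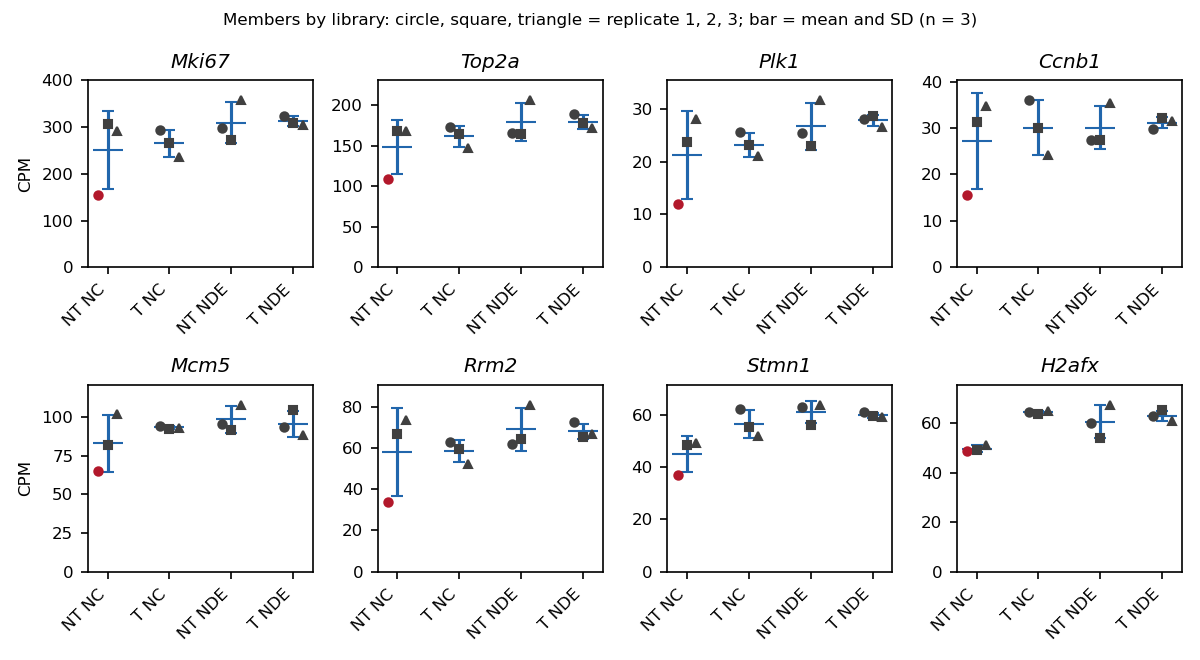
CPM (y axes, from 0) of 8 members in the 12 libraries, by group (x axes). Circles, squares and triangles are replicates 1, 2 and 3, blue bars are the mean and SD (n = 3), and NT NC replicate 1 is red. It is the lowest point in each panel, while for H2afx the 3 NT NC libraries lie close together, from 48.7 to 51.4 CPM.

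Levels per length put the genes on a common scale. Mean CPM per kilobase of annotated exon was highest for Pcna (61.6), H2afx (43.0), Stmn1 (28.9), Mki67 (28.3) and Mcm6 (28.0), and lowest for the checkpoint kinase Ttk (1.43). Exons of 10 members overlap an expressed gene on the opposite strand (Mcm7, Cdc45, Gins2, Tk1, Ccne2, Ccna2, Cdc20, Kif20a, Nusap1 and Prc1). The sources used here do not give the strand setting of the counting, so reads of these pairs may be mixed.

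Members varied together across libraries, and much of this came with the low library. The median Pearson r between pairs of mitosis members (351 pairs, log2 CPM) was 0.90 over 12 libraries and 0.68 over 11 without NT NC replicate 1. For pairs of replication members (190 pairs) the values were 0.69 and 0.36. All pairs share libraries and depth, so these are descriptions. Class means differed within groups by a pooled SD of 0.25 log2 units for mitosis and 0.16 for replication. The SD of the 4 group means was 0.15 and 0.10. A mean of 3 libraries varies less than a single library, so these SDs are not on the same scale. For mitosis the SD was 0.424 in NT NC, which holds the low library, 0.136 in T NC, 0.207 in NT NDE and 0.028 in T NDE. For replication it was 0.288, 0.06, 0.118 and 0.045 in the same order.

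Markers of other cells were read beside this pattern. NT NC replicate 1 had the lowest summed B cell level (2619 CPM) and the highest summed T cell level (1604 CPM). The germinal centre list (10 genes, with Gcnt3 at 0 in 4 libraries) summed to 135 CPM there and to 136 CPM in NT NC replicate 3, a library with 1190 CPM of mitosis members. Germinal centre markers ran from 135 to 168 CPM in NT NC, 160.0 to 182 in T NC, 156 to 219.5 in NT NDE and 147 to 213 in T NDE, highest in NT NDE replicate 3. Plasma cell markers (7 of 7) summed to 484, 1050.0 and 533 CPM in NT NC replicates 1, 2 and 3, and to 914 in NT NDE replicate 3. Erythroid markers (6 genes) summed to 118 CPM in NT NDE replicate 3 and 229.9 in T NDE replicate 3, against 19.9 to 31.9 in the other 10 libraries. Their ranges were 26.5 to 28.5 CPM in NT NC, 22.5 to 31.7 in T NC, 19.9 to 118 in NT NDE and 23.6 to 229.9 in T NDE. Neutrophil markers (7 genes, none at 0) summed to 63.2 to 148 CPM in NT NC, highest in replicate 1, 192 to 365 in T NC, 153 to 189.8 in NT NDE and 118.5 to 178 in T NDE. For T NC against NT NC 7 of 7 had a log2 fold change above 0 (median 1.48), and for T NDE against T NC 7 of 7 were below 0 (-1.40), with 0 passing the edgeR test. The part of these cells in the low and high libraries, and in the comparisons below, was not tested.

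The first comparison asks what the tumour does when the nerves are intact. In T NC against NT NC, 47 of 49 members had a fold change above 0, against 48% of all tested genes. The median log2 fold change was 0.17 over mitosis members (26 of 27 above 0), 0.11 over replication members (19 of 20) and -0.01 over all genes. With edgeR's quasi-likelihood test and Benjamini-Hochberg adjustment over all genes, 0 of 49 members and 0% of tested genes passed an adjusted p of 0.05. At an unadjusted p under 0.05, H2afx, Stmn1 and Mcm2 were higher, 3 of 49 members against 4.58% of tested genes.

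The direction of this comparison rested on 1 control library, NT NC replicate 1, the only NT NC library not among the salivary ones. Without it, NT NC held salivary libraries only. Then 11 of 27 mitosis members and 8 of 20 replication members were above 0, with medians of -0.03 and 0.00. Without the 3 salivary libraries, NT NC replicate 1 is the only library left in its group. The medians were then 0.72 and 0.44, and Birc5 passed (log2 fold change 1.14, edgeR adjusted p = 0.0171), as did 0.0385% of genes. Groups did not overlap for 4 members, all higher in T NC (H2afx, Stmn1, Mcm2 and Gins1), against 7.78% of tested genes. Without NT NC replicate 1, 4 members were wholly higher and 4 wholly lower (Kif11, Ccne2, Mcm4 and Rrm2), against 13.6% and 13% of tested genes.

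Among replication members the smallest p belonged to Mcm2 and E2f2. Mcm2 averaged 81.2 ± 6.78 CPM (SD, n = 3) in NT NC and 92.4 ± 4.55 in T NC, a log2 fold change of 0.19 (SE 0.081, edgeR adjusted p = 0.621), and E2f2 differed by 0.20 (SE 0.107, adjusted p = 0.671). Among mitosis members these were Ccnb2, at 0.35 (SE 0.176, edgeR adjusted p = 0.663), and Ube2c, at 0.33 (SE 0.164, adjusted p = 0.663). None of these passed the threshold. With NT NC replicate 1 left out the values were 0.12 for Mcm2, 0.10 for E2f2, 0.14 for Ccnb2 and 0.13 for Ube2c.

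**Figure D5:**
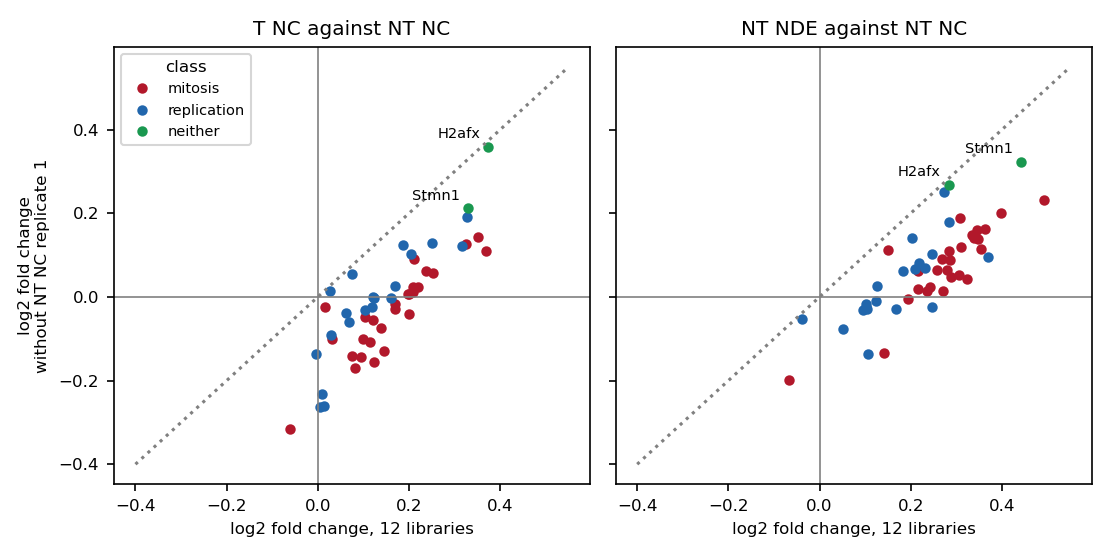
Log2 fold change of each member over 12 libraries (x axis) and without NT NC replicate 1 (y axis), for T NC against NT NC (left) and NT NDE against NT NC (right). Both comparisons share the NT NC libraries, and without replicate 1 only salivary libraries are left in NT NC. Most points lie below the dotted line of equal values, and the medians of the mitosis members move from 0.17 to -0.03 (left) and from 0.29 to 0.09 (right), while H2afx stays near the line.

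Nerve inhibition without a tumour gave the largest medians, again against the NT NC libraries. In NT NDE against NT NC, 47 of 49 members were above 0, against 51.1% of tested genes, with medians of 0.29 for mitosis and 0.18 for replication members. No member passed in the edgeR test (smallest adjusted p = 0.177, for Stmn1), and 0% of genes did. At an unadjusted p under 0.05, 9 of 49 members were higher, against 5.67% of genes: Stmn1, H2afx, E2f2, Mcm2, E2f1, Aurkb, Foxm1, Birc5 and Ube2c. Groups did not overlap for 3 members (Stmn1, H2afx and Birc5), against 9.71% of genes.

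E2f2 had a log2 fold change of 0.28 (SE 0.107, edgeR adjusted p = 0.400) and Mcm2 of 0.20 (SE 0.081, adjusted p = 0.424). Aurkb stood at 0.31 (SE 0.129, adjusted p = 0.435) and Foxm1 at 0.34 (SE 0.144, adjusted p = 0.446). Leaving out NT NC replicate 1 left NT NC with salivary libraries only. E2f2 then stood at 0.18, Mcm2 at 0.14, Aurkb at 0.19 and Foxm1 at 0.15. The medians were then 0.09 for mitosis (24 of 27 above 0) and 0.01 for replication members (10 of 20). Without that library and NT NDE replicate 3 together, a choice made after seeing the data, they were -0.036 and -0.049. Leaving out the lowest NT NC library and the highest NT NDE library fixed in advance the downward direction of the medians. Without the 3 salivary libraries they were 0.83 and 0.46, and 9 members passed in the edgeR test (Birc5, Ccnb2, Foxm1, Mcm5, Mki67, Plk1, Rrm2, Stmn1 and Ube2c), as did 0.181% of genes. That last comparison sets NT NC replicate 1 alone against 3 NT NDE libraries.

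In tumour-bearing mice the fold changes with nerve inhibition do not rest on NT NC. Their SE and p-values do, since the spread was estimated over all 12 libraries, NT NC replicate 1 included. In T NDE against T NC, 40 of 49 members were above 0, against 52.7% of tested genes, with medians of 0.12 for mitosis (24 of 27) and 0.05 for replication members (15 of 20). No member and 0% of genes passed the edgeR test, and 1 member had an unadjusted p under 0.05, against 2.75% of genes. Groups did not overlap for 9 of 49 members, all higher in T NDE (Kif23, Plk1, Mki67, Nuf2, Kif11, Cdc6, E2f1, Gins2 and Rrm2), against 4.55% of tested genes. Without the salivary libraries, of which only T NDE replicate 3 enters here, the medians were 0.14 and 0.08. They rested in part on T NC replicate 3, without which they were 0.05 for mitosis (20 of 27 above 0) and 0.02 for replication members (12 of 20). Without T NC replicate 1 they were 0.19 and 0.08.

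Kif23 had the smallest p. It stood at 36.7, 35.1 and 33.3 CPM in T NC and 41.3, 40.0 and 42.7 in T NDE, and also at 32.7, 34.8 and 36.5 in NT NC and 35.2, 37.5 and 42.8 in NT NDE. The T NDE libraries all lay above the T NC libraries, with a log2 fold change of 0.24 (SE 0.080, edgeR adjusted p = 0.756) that ran from 0.19 to 0.27 over 20 alternatives. Some of these left out only libraries of other groups, which can hardly move it (0.235 without NT NC replicate 1). Foxm1 differed by 0.18 (SE 0.144, adjusted p = 0.912), Ccne2 by 0.33 (SE 0.216, edgeR adjusted p = 0.897) and Tk1 by 0.18 (SE 0.122, adjusted p = 0.899). For Mki67 the means were 265 ± 29.2 CPM in T NC and 313 ± 10.3 in T NDE, a difference that did not pass the test (adjusted p = 0.923).

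With the nerves inhibited in both groups, tumour and no tumour were close. In T NDE against NT NDE, 28 of 49 members were above 0, against 50.3% of genes, with medians of 0.01 for mitosis (15 of 27) and 0.02 for replication members (12 of 20). No member passed the edgeR test, while 0.00578% of genes did, and 0 members had an unadjusted p under 0.05, where 1.66% of genes were higher and 2.05% lower. Gins2, at 0.24 (SE 0.138, edgeR adjusted p = 1.00), was the only member whose groups did not overlap, against 4.1% of genes. Ccne2 stood at 0.24, Bub1 at 0.11 and Kif23 at 0.10, all with an adjusted p of 1.00. Without NT NDE replicate 3 the mitosis median was 0.12, with 27 of 27 above 0. Without the salivary libraries the medians were 0.04 for mitosis (20 of 27 above 0) and 0.045 for replication members (17 of 20).

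The interaction asks whether the effect of nerve inhibition differs with the tumour, as the log2 change with nerve inhibition in T mice minus that in NT mice. It was below 0 for 46 of 49 members, against 48.9% of tested genes, with medians of -0.15 for mitosis and -0.06 for replication members. No member and 0% of genes passed the edgeR test. Only H2afx and Stmn1 had an unadjusted p under 0.05, both lower, against 3.95% of genes. Ccnb2 stood at -0.38 (SE 0.249, edgeR adjusted p = 0.780), Ube2c at -0.33 (SE 0.231, adjusted p = 0.792), Ccne1 at -0.31 (SE 0.237, adjusted p = 0.802) and Mcm2 at -0.19 (SE 0.115, adjusted p = 0.763). With NT NC replicate 1 left out, which left NT NC with salivary libraries only, these were -0.17, -0.13, -0.11 and -0.13. The medians turned to 0.06 and 0.05, with 17 of 27 and 13 of 20 members above 0. Without the 3 salivary libraries they were -0.74 and -0.36.

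H2afx and Stmn1 are in neither class. Like most members, both were lowest in NT NC replicate 1 and highest in NT NDE replicate 3. H2afx encodes the histone H2A.X, whose phosphorylated form marks DNA breaks, and lies on mm10 chromosome 9 from 44334694 to 44336077, as 1 exon on the plus strand. It stood at 48.7, 49.4 and 51.4 CPM in NT NC, 64.8, 64.0 and 65.1 in T NC, 60.3, 54.1 and 67.6 in NT NDE, and 62.8, 65.3 and 60.9 in T NDE. NT NC lay below every library of the other groups, and here its replicate 1 lay with the others of its group, which are salivary libraries. The share of all tested genes with NT NC below every other library was not computed, here or for Stmn1. The means were 49.9 ± 1.39 CPM in NT NC and 64.6 ± 0.553 in T NC (SD, n = 3).

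For T NC against NT NC the log2 fold change of H2afx was 0.37 (SE 0.073), with an edgeR adjusted p of 0.315, which did not pass. DESeq2 gave an adjusted p of 0.00675, where 0.231% of genes passed, and edgeR without the count filter gave 0.0445, where 0.013% passed. Over 20 alternatives the fold change ran from 0.36 to 0.42 and the adjusted p from 0.00675 to 0.831. Some of these alternatives left out only NT NDE or T NDE libraries, which can hardly move this fold change. The other contrasts gave 0.28 for NT NDE against NT NC (SE 0.073, edgeR adjusted p = 0.221), -0.04 for T NDE against T NC (adjusted p = 0.959), 0.05 for T NDE against NT NDE (adjusted p = 1.00) and -0.32 for the interaction (SE 0.103, adjusted p = 0.624).

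Stmn1 encodes stathmin, which destabilizes microtubules, and lies on mm10 chromosome 4 from 134468320 to 134473843, in 4 exons on the plus strand. It stood at 37.0, 48.2 and 49.2 CPM in NT NC, 62.2, 55.1 and 51.7 in T NC, 62.9, 56.1 and 63.8 in NT NDE, and 60.9, 59.4 and 59.0 in T NDE. Again all NT NC libraries lay below all others, but replicate 1 was far below the rest of its group. The log2 fold change was 0.44 for NT NDE against NT NC (SE 0.100, edgeR adjusted p = 0.177) and 0.33 for T NC against NT NC (SE 0.100, adjusted p = 0.494). DESeq2 gave an adjusted p of 0.0169 for the first, where 0.798% of genes passed, and over 20 alternatives it ran from 0.0169 to 0.509. Over the same alternatives the fold change ran from 0.29 to 0.72 for NT NDE against NT NC and from 0.21 to 0.62 for T NC against NT NC. With NT NC replicate 1 left out they were 0.32 and 0.21. Stmn1 stood at 0.08 in T NDE against T NC, -0.03 in T NDE against NT NDE and -0.36 in the interaction (SE 0.141, edgeR adjusted p = 0.669). Germinal centre markers were also lower in NT NC (mean 146 CPM) than in T NC (173), NT NDE (180.4) and T NDE (187). Summed stromal markers (6 genes) ran from 319 to 320.2 CPM in NT NC, below T NC (371 to 419) and NT NDE (433 to 445). In T NDE the stromal sum ran from 275 to 461 CPM, from below to above NT NC. Cxcl13 was the largest part of this sum, at 158, 175 and 189 CPM in NT NC. It stood at 236, 226 and 227.5 CPM in T NC and 295, 277 and 265 in NT NDE. Lyve1, the next largest, overlapped between these groups. Taken singly, 2 of 6 genes lay wholly above NT NC in T NC and 3 of 6 in NT NDE, against 7.78% and 9.71% of tested genes. The part of both marker lists in either gene was not tested.

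Further cell cycle genes were read from 4 lists outside the members. None of the 48 other mitosis genes, 38 other replication genes, 6 D cyclins and G1 kinases and 16 brakes passed the edgeR test in any contrast. Of the other mitosis genes 45 of 48, and of the other replication genes 31 of 38, were lowest in NT NC replicate 1. The counts were 1 of 6 for the D cyclins and G1 kinases and 6 of 16 for the brakes, which restrain the cycle. Their median log2 levels in that library against the other 11 were -0.65, -0.28, -0.14 and -0.14. In T NC against NT NC, 45 of 48 other mitosis genes (median 0.17) and 29 of 38 other replication genes (0.07) were above 0. For NT NDE against NT NC the counts were 46 of 48 (0.28) and 28 of 38 (0.09), and for T NDE against T NC 40 of 48 (0.09) and 21 of 38 (0.02). For T NDE against NT NDE they were 26 of 48 (0.005) and 16 of 38 (-0.016), and in the interaction 6 of 48 (-0.14) and 11 of 38 (-0.09). Both contrasts against NT NC, and the interaction, include the low library.

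Ccnd3 and Smc4 had the smallest p of these lists for NT NDE against NT NC. Ccnd3, cyclin D3, which links growth signals to G1 kinases, stood at 146, 142 and 160.5 CPM in NT NC and 181, 186 and 179.9 in NT NDE. These groups did not overlap, with a log2 fold change of 0.29 (SE 0.060, edgeR adjusted p = 0.144) that was 0.27 without NT NC replicate 1. Smc4, a condensin subunit that compacts chromosomes, ran the other way, at 376, 369 and 356 CPM in NT NC and 301, 306 and 304 in NT NDE, with a log2 fold change of -0.27 (SE 0.060, edgeR adjusted p = 0.174). Among the brakes, Cdkn2d, an inhibitor of G1 kinases, stood at 42.8, 38.9 and 41.2 CPM in NT NC and 50.1, 48.8 and 51.6 in T NC (0.29, SE 0.090, edgeR adjusted p = 0.494). Cdkn1a, the kinase inhibitor p21, stood at 19.2, 15.3 and 20.5 CPM in T NC and 14.1, 14.6 and 12.1 in T NDE (-0.43, SE 0.155, edgeR adjusted p = 0.803).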

How the data were processed

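RNA-seq of lymph nodes was read from 1 table of whole-number counts per gene, deposited by the authors without normalization (55487 genes, 12 libraries). Per the labels' protocols, total RNA was taken up in Trizol and mRNA libraries followed an Illumina procedure. Per the submitters' processing notes, HISAT2 2.0 and mm10 were used. The sources used here do not name the counter, annotation or strand setting. Library totals, 16862953 to 24467873 counts, set the counting precision. No symbol was found for 346 IDs, which held 0.0548% of counts or less in each library.

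These counts were tested with edgeR 4.0.16 (R 4.3.3): TMM factors (0.967 to 1.01), filterByExpr (minimum count 10, minimum total 15), and glmQLFit (robust) with a mean for each group, all 12 libraries together. P values are two-sided and Benjamini-Hochberg adjusted over all 17301 tested genes, threshold 0.05. An exact permutation of 3 against 3 libraries could not pass it. The fit was tested on simulated data for T NC against NT NC (17082 genes, 50 per fold). It recovered 66% of 1.5-fold, 80% of 2-fold, 94% of 3-fold and 100% of 4-fold changes, with 17 unchanged genes called. No member reached 1.5-fold in the main fit (largest log2 fold change 0.492, for Birc5), so recovery of changes as small as the members' was not measured. Noise was drawn gene by gene, without shifts shared across a library. Alternatives were DESeq2 1.42.0, its size factors in edgeR, no filter, a replicate block, 2 groups alone, each library left out, and the salivary libraries left out. Ranges over alternatives include fits without a library of another group, which can hardly move a contrast's fold change.

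The members and lists were chosen with earlier results of these data known. Library values are given for 14 fixed members. Fold changes are given, in each contrast, for the 2 replication and 2 mitosis members of smallest p, H2afx and Stmn1. Further genes are named by the smallest p of their list; Ccnd3, Smc4, Cdkn2d and Cdkn1a were picked from these, and Kif23 levels and Mki67 tests added, after values were seen. Positions are from GENCODE M21 on mm10, promoters from RefSeq on GRCm38.p6.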

Additional observations from a re-analysis of the deposited data

How the results depend on the processing

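No member passed in any fit that left out 1 library, and 3 of the 5 contrasts had 0 members called under every alternative. The 5 contrasts are listed in a fixed order: tumour with nerves intact, nerve inhibition with the tumour, nerve inhibition without it, tumour with nerves inhibited, and interaction. All genes called numbered 0, 0, 0, 1 and 0. With DESeq2 they numbered 40, 44, 138, 17 and 43. Without the count filter they were 4, 12, 43, 1 and 1, and without the 3 salivary libraries 7, 1, 33, 28 and 3. With only the groups compared, NT NDE against NT NC gave 37. Without the 2 most salivary libraries, T NDE against NT NDE gave 4. Without NT NC replicate 1 and NT NDE replicate 3 together, the second contrast gave 1 and the fourth 0. Leaving out 1 library gave 0 to 3, 0 to 1, 0 to 7, 0 to 4 and 0 to 2. The causes were not tested.

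Members called numbered 1 with DESeq2 (H2afx), 1 without the filter (H2afx) and 1 without the salivary libraries (Birc5) for T NC against NT NC. For NT NDE against NT NC they numbered 1 with DESeq2 (Stmn1) and 9 without the salivary libraries. Leaving out 1 library, the mitosis medians ran from -0.03 to 0.28, 0.05 to 0.19, 0.09 to 0.41, -0.07 to 0.12 and -0.31 to 0.06 in the same order. The replication medians ran from 0.00 to 0.22, 0.02 to 0.08, 0.01 to 0.25, -0.04 to 0.07 and -0.21 to 0.05. Without the salivary libraries, which leaves NT NC with replicate 1, assumed to vary like the other groups, the interaction medians were -0.74 for mitosis and -0.36 for replication. The other medians without them were 0.72 and 0.44 for T NC against NT NC, and 0.83 and 0.46 for NT NDE against NT NC. Without NT NC replicate 1 and NT NDE replicate 3 together, the mitosis median was -0.036 and the replication median -0.049 for NT NDE against NT NC, and the mitosis interaction median was 0.17. The direction of these shifts was fixed by the choice of the lowest and the highest library. In T NDE against NT NDE, H2afx (0.05) ran from -0.02 without NT NDE replicate 2 to 0.141 when 1 library was left out. Stmn1 (-0.03) ran from -0.082 to 0.007, the latter without NT NDE replicate 3, and was 0.007 with NT NC replicate 1 left out as well.

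Deviations of same-numbered libraries had r from -0.13 to 0.52 (median 0.01), highest between the salivary libraries NT NC replicate 3 and T NDE replicate 3. For different numbers r ran from -0.455 to 0.342 (median -0.0015). An r over 0.1 was seen in 3 of 18 same-numbered pairs and 4 of 36 others, and 7 of 12 libraries correlated best with their own number. These values do not settle whether replicate numbers pair the libraries, and the main fit had no replicate block. With a replicate block, genes called numbered 0, 0, 3, 3 and 1, and members called 0.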
